A study of Mus musculus with 7 samples.

Results

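The genes described here are Tnf, which encodes tumour necrosis factor (TNF), and 9 genes around it: the superfamily ligands Tnfsf9, Tnfsf13b and Tnfsf14, the receptors Tnfrsf1a, Tnfrsf1b and Cd40, the adaptors Traf1 and Traf2, and the TNF-inducible gene Tnfaip2. They were chosen by gene symbol, by a rule that uses no measured value, though with earlier results of these data known, and all 10 are among the 16047 genes of the deposited table. They were measured by 3′ RNA-seq in neutrophils sorted from mouse livers 24 h after acetaminophen-induced injury (AILI), 50000 cells per liver, from 4 livers of PBS-injected mice ("PBS neutrophils", replicates 5 to 8) and 3 livers of MC-21-injected mice ("MC-21 neutrophils", replicates 2 to 4). MC-21 is an antibody against CCR2, the chemokine receptor through which Ly6C-high monocytes reach the injured liver, so the comparison asks how liver neutrophils differ when those monocytes are missing. All mice were of the C57BL/6 strain and received 300 mg/kg of acetaminophen after a fast. The mice were males aged 8 to 12 weeks. MC-21 mice had 400 µL of conditioned medium with 29 µg/mL of antibody, and PBS mice had PBS, from 12 h before acetaminophen and every 24 h. The libraries held between 1592000 (MC-21 replicate 3) and 3962000 (PBS replicate 8) mapped reads. The control was PBS, not a medium with another antibody. Cells were gated as Ly6G+, CD11b+, Ly6C-low and negative for CX3CR1-GFP. Such a gate needs a GFP reporter allele at Cx3cr1, and the labels do not say which mice carried one.

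TNF is made as a membrane-bound trimer that the protease ADAM17 can release, and many myeloid cells produce it within minutes to hours of a danger signal. It binds TNFR1, encoded by Tnfrsf1a, which has a death domain and can lead either to NF-κB activation or to cell death, and TNFR2, encoded by Tnfrsf1b, which has no death domain and recruits TRAF2. The other ligands of the superfamily share the trimeric fold, and many of its receptors have cysteine-rich domains outside the cell and recruit TRAF adaptors inside it. Tnf mRNA is short-lived because its 3′ untranslated region holds an AU-rich element, which is bound by tristetraprolin, the product of Zfp36.

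This element is printed because it sets Tnf apart from the other members in sequence. The motif searched was TTATTTATT on the transcript strand, with overlapping matches counted, in the longest annotated 3′ untranslated region of each gene (GENCODE vM1, mm9). Tnf-001 held 5 matches in 764 bases. The other 8 members with an annotated region held 0, and Tnfsf13b has none annotated. Of 19915 genes with such a region, 6.52% held at least 1 match and 0.126% held as many as Tnf. For comparison, a match is shown from Cxcl2, a neutrophil chemokine, and from Zfp36 itself, which held 4 and 1 matches. Each line gives 30 bases, 5′ to 3′ on the transcript strand, with the bases of the motif in capitals, and the matches in Tnf overlap.
Tnf, chr17:35336622-35336651, minus strand: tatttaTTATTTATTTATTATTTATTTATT
Cxcl2, chr5:91334895-91334924, plus strand: cgtgtcttgaagtggacacatTTATTTATT
Zfp36, chr7:29161969-29161998, minus strand: tatgacgactTTATTTATTgtattaagatt
A match describes these letters and does not show that the element acts in these cells.

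The cell label was checked against markers first. In all 7 libraries the 14 neutrophil markers were above 0, led by S100a9 with a mean of 18381 RPKM, a read count scaled to transcript length and to the mapped reads of the library. These markers summed to 30780, 18316, 26214 and 20609 RPKM in PBS neutrophils and to 28033, 35732 and 41701 RPKM in MC-21 neutrophils, so the groups overlapped. By limma, 5 of them were higher and 1 lower in MC-21 neutrophils at an unadjusted p under 0.05, and Cd177 was higher with an adjusted p of 0.0415. On RPKM as deposited, 3.59% of all genes tested were higher and 11.2% lower at that unadjusted threshold, for comparison with each marker count. Markers of other cell types were detected too, and whether other cells or the neutrophils themselves supplied them was not tested. The 12 monocyte and macrophage markers summed to 2016, 1959, 1677 and 1991 RPKM in PBS neutrophils and to 1137, 1450 and 1013 RPKM in MC-21 neutrophils, and Apoe was the most abundant of them. Of the 11 that could be tested, 8 were lower and 0 higher in MC-21 neutrophils at an unadjusted p under 0.05, and Fcgr1 and Ccr2 were lower with an adjusted p of limma under 0.05. The 4 B cell markers in the table summed to 10.7, 29.9, 13.0 and 14.1 RPKM in PBS neutrophils and to 8.15, 6.14 and 9.73 RPKM in MC-21 neutrophils, led by Cd79b. Dendritic cell markers summed to 20.7 to 33.0 RPKM (led by Itgax), Kupffer cell markers to 34.3 to 84.4 (Marco), T and NK cell markers to 7.46 to 22.1 (Nkg7), endothelial markers to 1027 to 2320 (Clec4g) and hepatocyte markers to 165 to 439 (Apoa1). At an unadjusted p under 0.05, 2 of 3 tested Kupffer cell markers, 2 of 3 B cell markers, 1 of 4 dendritic cell markers and 1 of 4 T and NK cell markers were lower in MC-21 neutrophils, and 0 of any of these lists were higher. For endothelial and hepatocyte markers the count was 0 in either direction. No marker of any list was at 0 in every library. In sorted pools such as these, fewer cells of a type and less RNA per cell cannot be told apart.

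The members covered a wide range of levels, from Tnfrsf1a and Tnfaip2 among the most abundant genes of the table to Traf1 near the middle. Mean RPKM over the 7 libraries was 284 for Tnfrsf1a, 214 for Tnfaip2, 107 for Tnf, 34.98 for Tnfrsf1b, 28.8 for Tnfsf14, 16.9 for Tnfsf9, 5.83 for Traf2, 4.31 for Tnfsf13b, 3.58 for Cd40 and 2.33 for Traf1. Tnfrsf1a ranked 281st, Tnfaip2 360th, Tnf 659th and Traf1 7845th among all genes. The ranges over libraries left 3 clear steps in this order, below Tnfaip2, below Tnf and below Tnfsf9. Every other pair of neighbours overlapped. Tnfrsf1a was nevertheless above Tnfaip2 in 7 of 7 libraries, while Tnfsf13b was above Cd40 in only 2 of 7.

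**Figure D1:**
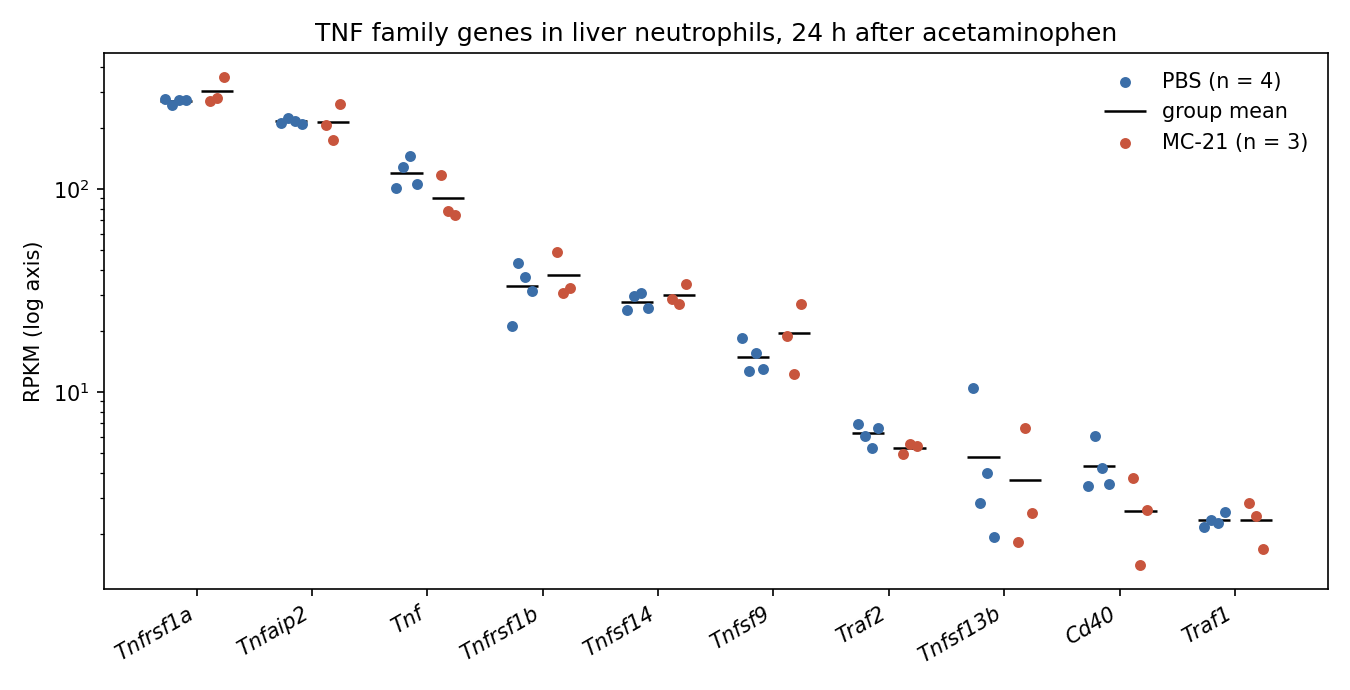
RPKM of the 10 members (log axis) in each PBS library (blue) and each MC-21 library (red), with a black line at each group's mean. At the 3 steps, below Tnfaip2, Tnf and Tnfsf9, the neighbouring genes do not overlap, and the blue and red points of every gene overlap.

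RPKM divides by transcript length, and a 3′ library yields roughly 1 fragment end per molecule whatever the length, so the order was also taken in RPM, which scales reads to the library alone, with whole reads recovered from the table. On that scale Tnfaip2 came first with 766 and Tnfrsf1a second with 612 RPM. Tnf, with 177, and Tnfrsf1b, with 172, lay close together, where RPKM sets them 3.05-fold apart. The lowest 3 were Traf1 with 8.95, Tnfsf13b with 7.33 and Cd40 with 6.38 RPM. This order depends on the length used to undo the division. With the annotated transcript length in place of the recovered one, Cd40 had 10.7, Traf1 7.95 and Tnfsf13b 4.01 RPM, and Tnf had 175 against 134 for Tnfrsf1b, while Tnfaip2 and Tnfrsf1a stayed first and second. The lowest members rest on few reads. Cd40 had between 4 and 36 reads per library, Tnfsf13b between 11 and 49 and Traf1 between 15 and 39. Tnf had between 204 and 703 and Tnfaip2 between 993 and 2966.

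**Figure D2:**
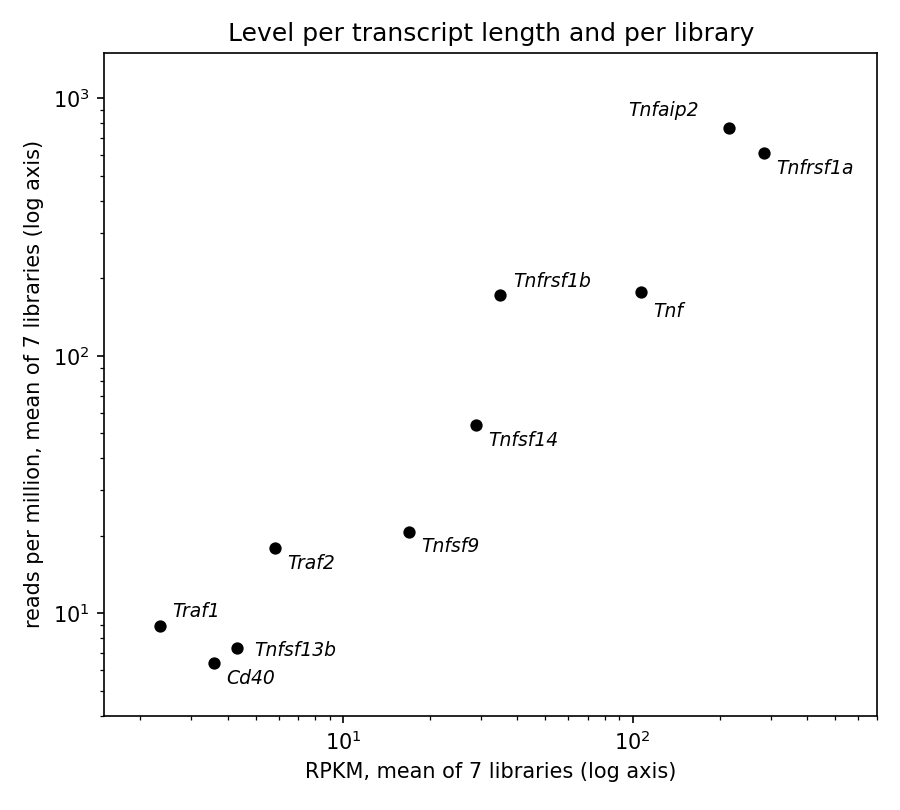
Mean of 7 libraries for each member in RPKM (x, log axis) and in RPM (y, log axis). Tnf and Tnfrsf1b sit at nearly the same height (177 and 172 RPM) but apart along x (107 and 34.98 RPKM).

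Between MC-21 and PBS neutrophils, no member passed the test. All 10 averaged 1 RPKM or more and so were among the 9594 genes tested, and 0 of 10 had an adjusted p under 0.05 with limma on log2(RPKM + 1), against 0.625% of all genes tested (60 genes). At an unadjusted p under 0.05 the count was also 0 of 10, against 14.7% of all genes (3.59% higher and 11.2% lower in MC-21 neutrophils). With the further demand of a 2-fold change the count was 0 of 10, against 2.7% of all genes. The groups overlapped in 10 of 10 members, and failed to overlap in 13.3% of all genes. Values of log2 fold change below 0 were found in 6 of 10 members and in 69.4% of all genes. Its median was -0.02 over the members and -0.15 over all genes, and both depend on scaling, as does the count of members below 0. Traf1 moved above 0 with quantile normalization (0.16), and Traf1 (0.15) and Tnfaip2 (0.14) did so with median centring. With quantile normalization 51.3% of all genes were below 0 (median -0.01) and with median centring 47.3% (median 0.02). The 60 calls split into 41 lower and 19 higher genes, against 29 and 26 with quantile normalization and 30 and 44 with centring, so a split into higher and lower genes holds for RPKM as deposited. The 95% interval stayed within 1 of 0, that is within 2-fold on this scale, for 8 of 10 members and for 74.7% of all genes. Each library came from a separate liver.

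**Figure D3:**
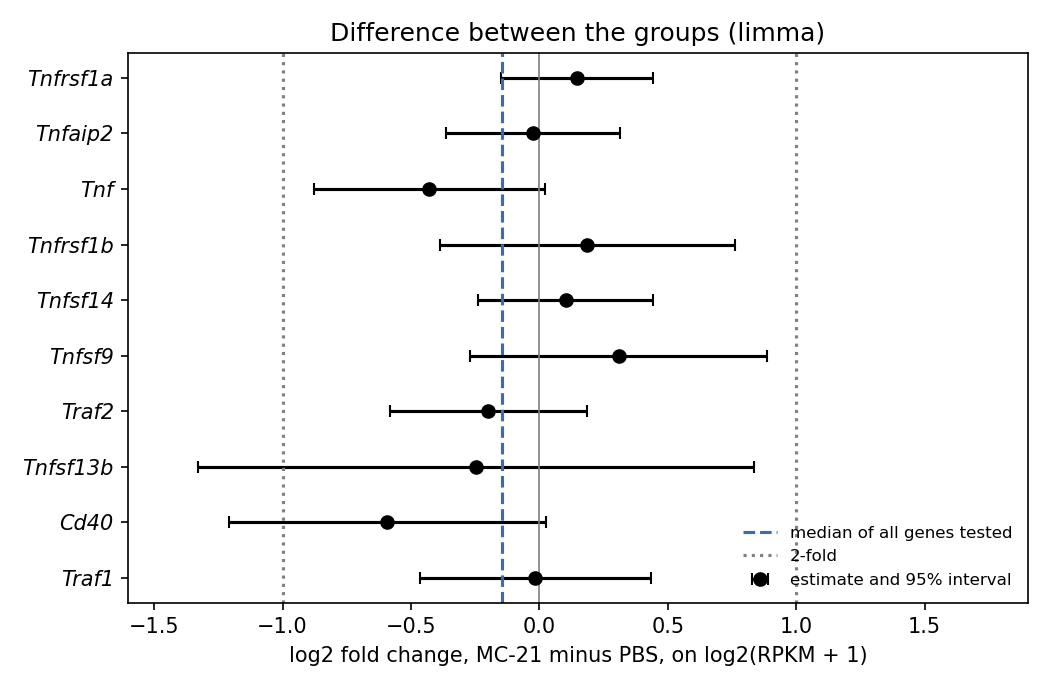
Log2 fold change of each member, MC-21 minus PBS on log2(RPKM + 1), with its 95% interval from limma (4 PBS and 3 MC-21 libraries). All 10 intervals include 0, the dashed line is the median of all genes (-0.15), and only the intervals of Tnfsf13b and Cd40 pass the dotted 2-fold line.

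Among the ligands, Tnf lies on chromosome 17 (mm9 17, 35336326 to 35338952, minus strand), 3060 bases from Ltb, the gene of lymphotoxin beta, and 1157 bases from Lta, the gene of lymphotoxin alpha. Tnf measured 101, 128, 145 and 105 RPKM in PBS replicates 5 to 8 and 117, 77.5 and 74.4 RPKM in MC-21 replicates 2 to 4. Both lowest values belonged to MC-21 neutrophils, and MC-21 replicate 2 lay inside the PBS range. The means were 120 ± 20.6 RPKM (SD, n = 4) and 89.7 ± 23.8 RPKM (SD, n = 3). Its log2 fold change was -0.43 (SE 0.20, 95% interval -0.88 to 0.02), with an adjusted p of 0.364 by limma. An exact permutation test of Tnf alone gave a two-sided p of 0.143, and 0.0286 is the smallest that 4 against 3 libraries allow. Without MC-21 replicate 2 the log2 fold change was -0.63 with an adjusted p of 0.223, over a range of 0.223 to 0.671 for the alternatives run, and centring on library medians made it -0.26.

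The neighbours of Tnf were at very different levels. Ltb measured 306, 385, 285 and 328 RPKM in PBS neutrophils and 355, 250 and 256 RPKM in MC-21 neutrophils, so its groups overlapped, and its log2 fold change was -0.19 with an adjusted p of 0.633. This value was -0.36 without MC-21 replicate 2, -0.10 without MC-21 replicate 3 and -0.03 with median centring. Lta, also named after its values were seen, was listed at 0 in 4 of the 7 libraries and reached at most 1.46 RPKM.

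Tnfsf14 encodes LIGHT, a ligand of HVEM and of the lymphotoxin beta receptor (17, 57328915 to 57333612). It measured 25.3, 29.6, 30.6 and 25.9 RPKM in PBS neutrophils and 28.8, 27.2 and 34.1 RPKM in MC-21 neutrophils. It was even across libraries, with a log2 fold change of 0.10 (SE 0.15) and an interval of -0.24 to 0.44. This value was 0.01 without MC-21 replicate 4, 0.17 without MC-21 replicate 3, 0.06 without PBS replicate 5 and 0.27 with centring.

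Tnfsf9 encodes 4-1BB ligand, a costimulatory ligand (17, 57244808 to 57247180). It measured 18.5, 12.7, 15.6 and 12.9 RPKM in PBS neutrophils and 18.9, 12.3 and 27.2 RPKM in MC-21 neutrophils. Its highest and its lowest value both came from MC-21 neutrophils. The log2 fold change of 0.31 (SE 0.26) went to 0.04 without MC-21 replicate 4 and to 0.59 without MC-21 replicate 3.

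Tnfsf13b encodes BAFF, a survival factor for B cells (8, 10006843 to 10035441). It measured 10.4, 2.83, 3.99 and 1.93 RPKM in PBS neutrophils and 1.81, 6.66 and 2.54 RPKM in MC-21 neutrophils. PBS replicate 5 and MC-21 replicate 3 stood above the other libraries. This was the most variable member, with an SD of 80.3% of the mean in PBS neutrophils. Its log2 fold change of -0.25 (SE 0.48, interval -1.33 to 0.84) turned to 0.15 without PBS replicate 5 and to 0.05 without MC-21 replicate 2.

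The receptors differed in level far more than in response. Tnfrsf1a, the TNFR1 gene (6, 125299380 to 125312502), measured 276, 258, 275 and 274 RPKM in PBS neutrophils and 270, 281 and 354 RPKM in MC-21 neutrophils. PBS libraries were nearly equal, with an SD of 3.21% of the mean, and MC-21 replicate 4 was the highest library. MC-21 minus PBS was 0.15 on the log2 scale (SE 0.13, interval -0.15 to 0.44), with an adjusted p of 0.649 by limma. It went to 0.03 without MC-21 replicate 4 and to 0.31 after centring on library medians. The exact permutation p was 0.114, and it was the smallest the design allows, 0.0286, with that centring.

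Tnfrsf1b, the TNFR2 gene (4, 144803366 to 144836773), measured 21.2, 42.9, 36.8 and 31.5 RPKM in PBS neutrophils and 49.1, 30.8 and 32.5 RPKM in MC-21 neutrophils. The lowest library was PBS replicate 5 and the highest MC-21 replicate 2. Its log2 fold change of 0.19 (SE 0.26) fell to -0.02 without MC-21 replicate 2 and to -0.01 without PBS replicate 5, so it has no stable direction. Per length, Tnfrsf1a exceeded Tnfrsf1b by 8.79 ± 3.01 times in PBS neutrophils (SD, n = 4) and by 8.51 ± 2.75 times in MC-21 neutrophils (SD, n = 3). In RPM from recovered reads the gap was narrower, with means of 583 against 163 in PBS neutrophils and 650 against 184 in MC-21 neutrophils.

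Cd40 is the receptor through which T cells activate antigen-presenting cells (2, 164881127 to 164898448). On RPKM as deposited, with every library included, it had the largest estimate of the members. It measured 3.45, 6.06, 4.22 and 3.54 RPKM in PBS neutrophils, from 17, 36, 20 and 25 reads, and 3.77, 1.41 and 2.62 RPKM in MC-21 neutrophils, from 24, 4 and 13 reads. The lowest 2 libraries were from MC-21 mice, and MC-21 replicate 2 overlapped the PBS range. The 4 reads of MC-21 replicate 3 have an exact Poisson 95% interval of 1.09 to 10.2 reads, which covers counting error only. For Cd40 the log2 fold change was -0.59 (SE 0.28, interval -1.21 to 0.03), with an adjusted p of 0.362 by limma. It was -0.33 without MC-21 replicate 3 and -0.82 without MC-21 replicate 2. Without MC-21 replicate 3 the estimates of Tnfsf13b (-0.67) and Tnfsf9 (0.59) were larger in size. With median centring Cd40 had -0.43, and Tnfsf9 was again larger in size, at 0.47. The library with most Cd40, PBS replicate 6, was also the one with the highest sum of B cell markers (29.9 RPKM), and monocyte and macrophage markers were lower in MC-21 neutrophils. Their part in the Cd40 values was not tested.

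The adaptors were among the lower members in RPKM, with Traf2 5488th and Traf1 7845th of the 16047 genes. Traf2, which carries ubiquitin ligases to the TNF receptors (2, 25373502 to 25402460), measured 6.96, 6.07, 5.27 and 6.67 RPKM in PBS neutrophils and 4.93, 5.53 and 5.397 RPKM in MC-21 neutrophils. The MC-21 libraries lay at the lower end of the PBS range or, in replicate 2, below it. Their difference on the log2 scale was -0.20 (SE 0.17), and -0.04 with libraries centred on their medians. Traf1, an NF-κB target that pairs with TRAF2 (2, 34797270 to 34817292), measured 2.17, 2.35, 2.26 and 2.57 RPKM in PBS neutrophils and 2.85, 2.46 and 1.69 RPKM in MC-21 neutrophils. The MC-21 libraries lay on both sides of the PBS libraries. For Traf1 the log2 fold change was -0.02 (SE 0.20), and its sign changed with centring (0.15).

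Tnfaip2, first found as a gene induced by TNF in endothelial cells (12, 112680680 to 112693229), measured 211, 222, 216 and 210 RPKM in PBS neutrophils and 205, 175 and 262 RPKM in MC-21 neutrophils. PBS libraries were nearly equal, with an SD of 2.68% of the mean, and the MC-21 libraries spread to both sides of them. The log2 fold change was -0.02 (SE 0.15, interval -0.36 to 0.31), and 0.14 with centring.

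The rest of the pathway was read from 5 lists of ligands, receptors, proximal signalling proteins, genes of TNF processing and mRNA control, and TNF-inducible genes. They were chosen with earlier results of these data known. Without the 10 members these lists name 105 genes, of which 101 are in the table and 78 averaged 1 RPKM or more and were tested. Of the 78, 0 had an adjusted p under 0.05 with limma, and 17 (21.8%) had an unadjusted p under 0.05, 11 higher and 6 lower in MC-21 neutrophils, beside 14.7% of all genes. With a 2-fold change in addition the count was 0. The groups did not overlap in 8 genes that were higher and 4 that were lower, beside 13.3% of all genes, of which 297 were higher and 983 lower. The median log2 fold change of the 78 was -0.11.

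Few other ligands were measurable: 3 of the 10 in the table averaged 1 RPKM or more. Tnfsf12 encodes TWEAK, the ligand of the receptor Fn14. It measured 40.8, 43.1, 43.3 and 46.9 RPKM in PBS neutrophils and 24.95, 30.4 and 25.05 RPKM in MC-21 neutrophils. Every MC-21 library was below every PBS library. The log2 fold change was -0.68 (SE 0.14), with an adjusted p of 0.0739 by limma and, over the alternatives run, 0.0618 to 0.232. Tnfsf13, the gene of APRIL and a close relative of Tnfsf13b, had the lowest mean of these 3 ligands (8.71 RPKM) and is named after its values were seen. It measured 9.91, 8.58, 11.9 and 11.6 RPKM in PBS neutrophils and 6.67, 7.86 and 4.50 RPKM in MC-21 neutrophils, again without overlap, with a log2 fold change of -0.66 (SE 0.21) and an adjusted p of 0.214. Beside both genes, the monocyte and macrophage marker sum was lower in MC-21 neutrophils, and its part in them was not tested.

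Of the 25 other receptors, 12 were tested, 6 with a log2 fold change above 0 and 6 below, beside 69.4% of all genes below 0. An unadjusted p under 0.05 was found in 1 (8.33%), beside 14.7% of all genes. Ltbr, the lymphotoxin beta receptor, averaged 122 RPKM in PBS neutrophils and the log2 fold change was 0.05. Tnfrsf12a, the gene of Fn14, averaged 77.1 RPKM over all libraries, with PBS values from 47.3 to 139 RPKM and MC-21 values from 43.0 to 104 RPKM, so its groups overlapped. Per length, in RPKM, these followed Tnfrsf1a among the receptors.

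Proximal signalling genes were led by Birc3 (34.3 RPKM, an inhibitor of apoptosis), Sharpin (19.0 RPKM, a subunit of the linear ubiquitin ligase) and Tradd (17.4 RPKM, the TNFR1 adaptor). Of 25 tested without Traf1 and Traf2, 21 had a log2 fold change below 0, beside 69.4% of all genes, and the median was -0.21. The 1 higher and 2 lower genes with an unadjusted p under 0.05 made up 12.0%, near the 14.7% of all genes, and the difference was not tested. The higher one was Map3k14, the NF-κB-inducing kinase that TRAF2 holds in check, with 7.80, 7.77, 5.77 and 8.53 RPKM in PBS neutrophils and 13.1, 10.4 and 11.1 RPKM in MC-21 neutrophils. Its groups did not overlap, and the adjusted p was 0.215. It is named after its values were seen.

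In the list of TNF processing and mRNA control, Zfp36 was among the most abundant genes of the table. It measured 2004, 2037, 1969 and 1462 RPKM in PBS neutrophils and 2245, 1593 and 1224 RPKM in MC-21 neutrophils. The groups overlapped, with a log2 fold change of -0.18 that went to 0.03 without MC-21 replicate 4. Litaf and Mapkapk2, the latter a kinase that acts on tristetraprolin, averaged 276 and 120 RPKM. Of 14 genes, 3 (21.4%) had an unadjusted p under 0.05, and these 3 were higher, beside 14.7% of all genes and 3.59% in that direction. The share by direction holds for RPKM as deposited. Zc3h12a, which encodes the RNase Regnase-1, measured 28.4, 48.7, 33.8 and 39.7 RPKM in PBS neutrophils and 67.2, 58.2 and 78.2 RPKM in MC-21 neutrophils. All MC-21 libraries were above the PBS libraries, with a log2 fold change of 0.85 (SE 0.20) and an adjusted p of 0.109. Timp3, an inhibitor of ADAM17, had a log2 fold change of 0.71 and an adjusted p of 0.165. Zc3h12a and Timp3 are named after their values were seen.

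The TNF-inducible genes other than Traf1 and Tnfaip2 were divided, with 15 of 25 tested above 0 and a median log2 fold change of 0.03. An unadjusted p under 0.05 was reached by 6 higher and 2 lower genes, beside 3.59% of all genes that were higher and 11.2% that were lower. These counts and shares by direction hold for RPKM as deposited, where 69.4% of all genes were below 0, against 47.3% with median centring. The most abundant was Cxcl2, at 7687, 11967, 12755 and 9603 RPKM in PBS neutrophils and 15710, 14212 and 16233 RPKM in MC-21 neutrophils. Every MC-21 library exceeded every PBS library, and the log2 fold change was 0.58 (SE 0.18) with an adjusted p of 0.194. Quantile normalization, under which Cxcl2 takes the same value in every library, removed this difference. Il1b, at 7178 RPKM over all libraries, had a log2 fold change of 0.09. This value was 0.005 without PBS replicate 6 and 0.25 with median centring. Nfkbia, the NF-κB inhibitor, had a log2 fold change of 0.53 with an adjusted p of 0.264 by limma. Tnfaip3, the gene of the NF-κB inhibitor A20, is named after its values were seen. It measured 18.3, 32.2, 36.4 and 25.1 RPKM in PBS neutrophils and 47.0, 57.6 and 45.4 RPKM in MC-21 neutrophils. The groups did not overlap, with a log2 fold change of 0.85 (SE 0.23), and the adjusted p of 0.156 did not pass. The 2 lower genes, also named after their values were seen, were the NF-κB subunits Nfkb2 and Relb. Nfkb2 measured 41.1, 41.5, 42.5 and 43.7 RPKM in PBS neutrophils and 32.8, 32.3 and 30.3 RPKM in MC-21 neutrophils. Its groups did not overlap, with a log2 fold change of -0.40 (SE 0.13) and an adjusted p of 0.217. With median centring it was -0.24, and its unadjusted p of 0.109 by limma no longer passed. Relb had a log2 fold change of -0.48 (SE 0.18) with an adjusted p of 0.274, and its groups overlapped.

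**Figure D4:**
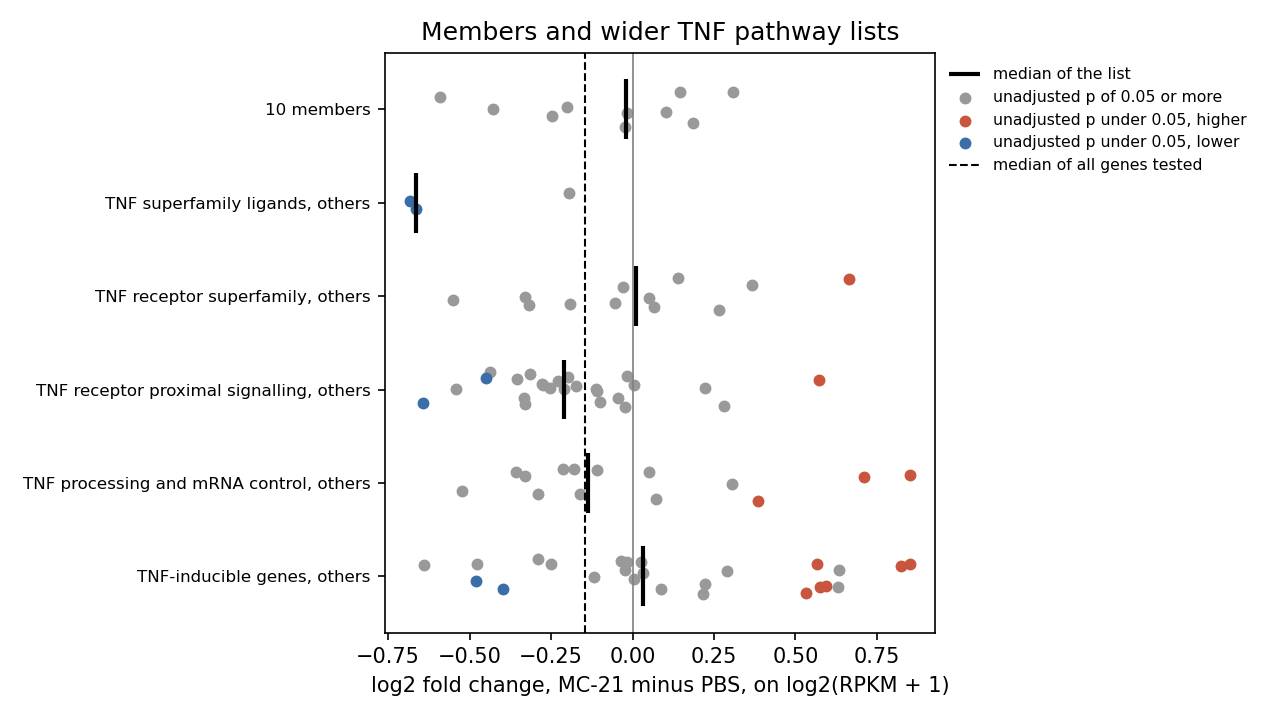
Log2 fold change (MC-21 minus PBS, on log2(RPKM + 1)) of the 10 members and, without them, of the tested genes of each wider list. Red and blue points have an unadjusted p under 0.05, a thick line marks each list's median and the dashed line the median of all genes (-0.15). None of the points of the members is coloured.

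The genes most like Tnf over the 7 libraries, by Pearson's r of log2(RPKM + 1) among 5859 other genes averaging 5 RPKM or more, were Ube2d1 (r = 0.992), Bag1 (0.981), Gcsh (0.979), 4930453N24Rik (0.976) and Atxn7l1 (0.972). They were the best of many over few libraries, which also share differences in depth and in markers of cell types, so the values are a description. In all 5, as in Tnf, MC-21 replicates 3 and 4 had the lowest 2 values, and MC-21 replicate 2 lay within the PBS range. The genes were picked for likeness to Tnf over these same libraries, so this shared order comes with the choice and is no separate result.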

How the data were processed

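The authors mapped 3′ RNA-seq reads to mm9 with HISAT 0.1.5 and deposited RPKM values per gene and library from Partek 6.6. The annotation, the handling of shared reads and of molecular barcodes, and any filter are not given in the sources used here. The members and lists were chosen with earlier results of these data known. RPKM values of low genes are whole multiples of 1 read, which gave 2765000, 3330000, 2660000 and 3962000 mapped reads for PBS replicates 5 to 8 and 3572000, 1592000 and 2781000 for MC-21 replicates 2 to 4, and whole reads per member (within 0.02 of a read). RPKM is not a count, so count models were not used.

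MC-21 minus PBS was fitted with limma 3.58.1 (R 4.3.3, eBayes with a trend) on log2(RPKM + 1) for 9594 genes averaging 1 RPKM or more, with Benjamini-Hochberg adjustment over all of them, in place of the study's t-test. This scale understates changes of low genes. Single members were also compared by a two-sided exact permutation test of mean log2(RPKM + 1). Named genes are the 10 members, from each wider list the genes that passed a threshold and the 3 with the highest mean, the leading marker of each cell type, and the 5 genes most like Tnf. Other genes were named after their values were seen. Alternatives were a pseudocount of 0.1, no filter, a minimum mean of 5 RPKM, centring on medians, quantile normalization, no trend, leaving out each library, and, for levels, reads scaled to the library alone (RPM). Tnfsf4, Cd40lg, Tnfsf11, Tnfsf18, Pax5, Ighm and Trac were not analysed here.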

Additional observations from a re-analysis of the deposited data

Results flagged for a closer look

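A PBS library stood far from the other 3 in 2 of the 31 genes examined for this (the 10 members and 21 genes of the wider lists) by Dixon's ratio. Chance alone gives about 1 in 20. Tnfrsf1a measured 258 RPKM in PBS replicate 6, with a ratio of 0.938, because the other 3 PBS libraries were nearly equal at 274 to 276 RPKM. Zfp36 measured 1462 RPKM in PBS replicate 8, with a ratio of 0.881, below 1969 to 2037 RPKM in the others. The MC-21 group, with 3 libraries, was not examined in this way.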

How the results depend on the processing

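No member and no wider pathway gene had an adjusted p under 0.05 under any alternative run, and 0 members passed an unadjusted p under 0.05 with a 2-fold change. The lowest adjusted p over the alternatives was 0.223 for a member and 0.0545 (Zc3h12a) among the 21 wider genes followed one by one. At an unadjusted p under 0.05, 2 members passed without MC-21 replicate 2 (Tnf and Cd40), 1 without MC-21 replicate 3 (Tnfsf9) and 1 without PBS replicate 5 (Tnf). By the exact permutation test 0 members had a p under 0.05, and 1, Tnfrsf1a, did with median centring. Leaving out a library does not allow such a p, since the smallest is 0.1 for 3 against 3 and 0.0667 for 4 against 2.

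Of 127 log2 fold changes of members under the alternatives, 117 kept their sign and 10 did not. The first count includes values that could not change sign. No filter, a minimum mean of 5 RPKM and no trend leave the log2 fold change of a member as it was. By leaving out 1 library the range was -0.01959 to 0.3224 for Tnfrsf1b (below 0 without MC-21 replicate 2 or PBS replicate 5), -0.6724 to 0.149 for Tnfsf13b (above 0 without MC-21 replicate 2 or PBS replicate 5), -0.1282 to 0.1304 for Traf1 (above 0 without MC-21 replicate 4 or PBS replicate 8) and -0.1796 to 0.1113 for Tnfaip2 (above 0 without MC-21 replicate 3). Traf1 also changed sign with quantile normalization (0.1632) and median centring (0.1473), and Tnfaip2 with median centring (0.1393). Among wider genes the leave-one-out range crossed 0 for Ltbr (-0.01788 to 0.1421), Tnfrsf12a (-0.189 to 0.4384) and Zfp36 (-0.4064 to 0.03053), and Mapkapk2 was 0.002809 with median centring. The cause was not tested. Tnfsf13b, Cd40 and Traf1, below 5 RPKM, drop out at that minimum.

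The count of all genes with an adjusted p under 0.05 went from 60 to 6 with no filter on low values, where 15778 genes were tested, and lay between 9 (PBS replicate 8 left out) and 102 (PBS replicate 6 left out). No paired analysis was possible because the groups share no replicate number. Few reads lie behind Cd40 (4 to 36 per library), Tnfsf13b (11 to 49) and Traf1 (15 to 39). The 95% intervals of Cd40 and Tnfsf13b pass 2-fold, and that of Traf1 (-0.47 to 0.43) does not.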
